A study of Mus musculus with 2 samples.

Results

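The FOXO transcription factor family of the mouse, which comprises Foxo1, Foxo3, Foxo4, and Foxo6, was examined in skeletal muscle that overexpressed one of its own members. These 4 genes were taken from 21366 genes that could be named on the arrays, with every probe whose RefSeq transcript belonged to them, which gave 7 probes, each printed as 1 spot. RNA of the gastrocnemius, a calf muscle of mixed fiber types, was compared between a pool of 5 male FOXO1-Tg mice and a pool of 6 male wild-type mice, all 25 weeks old. FOXO1-Tg mice carry a transgene that overexpresses FOXO1 in skeletal muscle, and the promoter that drives it is not given in the sources used here. Each pool was hybridized to 1 Agilent 1-color whole mouse genome array, so spread between mice cannot be seen after pooling, no sample repeats the comparison, and no test across samples or p-value is given.

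FOXO proteins are forkhead transcription factors that bind DNA through a winged-helix domain and act mostly as activators. When insulin or IGF-1 signals through PI3K, the kinase AKT phosphorylates FOXO proteins, 14-3-3 proteins then hold them in the cytoplasm, and their target genes are transcribed less. When the signal falls, as in fasting, FOXO proteins stay in the nucleus. In skeletal muscle the family is known for genes of protein breakdown, autophagy, and fuel use that are active during atrophy and fasting.

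Values are processed signals, an intensity with the background already subtracted, and log2 ratios are FOXO1-Tg over wild-type after each array was divided by its own 75th percentile (844 for the FOXO1-Tg pool and 771 for the wild-type pool). The error given with a ratio is the scanner software's own error of both spots combined, which covers the array measurement and not the mice. On the arrays, 65.8% of spots in the FOXO1-Tg pool and 65.5% in the wild-type pool were well above background, and none was saturated. The median log2 ratio of the 15493 genes detected on both arrays was -0.07. Of 8 muscle fiber markers, all were detected, with 1 past 2-fold (Mb, the oxygen store myoglobin, at -1.14) and a median of -0.10, so the labeled tissue carried its markers in both pools. Over all genes detected on at least 1 array, 4.2% were more than 2-fold higher and 3.86% were more than 2-fold lower. Summed over the list, the marker signals relative to the 75th percentile were 3907 in the FOXO1-Tg pool and 4401 in the wild-type pool.

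Across the family, 1 probe was more than 2-fold higher in the FOXO1-Tg pool, 2 probes were more than 2-fold lower, and 4 lay within 2-fold. The higher probe belonged to Foxo1 and both lower probes to Foxo6, whereas no probe of Foxo3 or Foxo4 passed 2-fold. Over all 38010 probes detected on at least 1 array, 3.36% were more than 2-fold higher and 4.86% were more than 2-fold lower. Probes of the same gene match the same transcript and are not independent of each other.

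**Figure D1:**
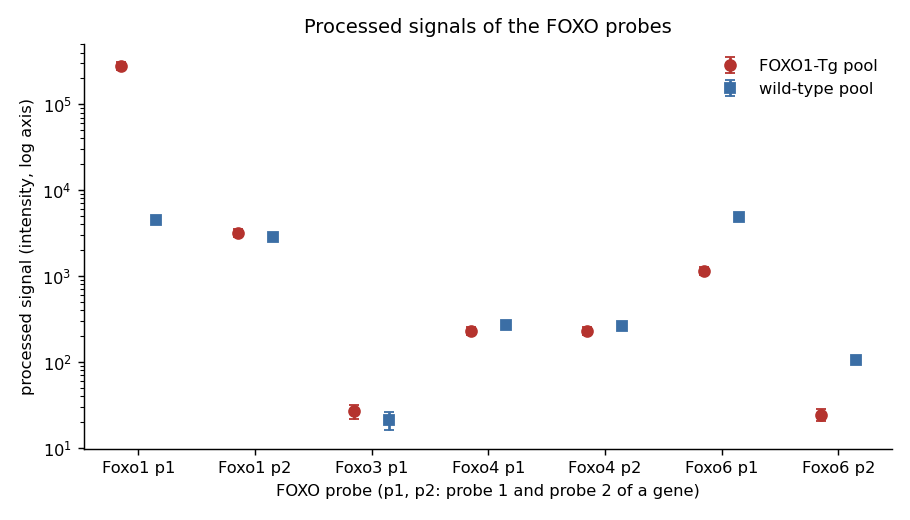
Processed signal (intensity, log axis) of each FOXO probe in the FOXO1-Tg pool (circles) and the wild-type pool (squares), with the scanner's error of the spot as bars, which are smaller than most symbols. The first Foxo1 probe stood at 279457 in the FOXO1-Tg pool and 4540 in the wild-type pool, and both Foxo6 probes were lower in the FOXO1-Tg pool.

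Foxo1 is the gene that the transgene overexpresses, and it serves as a check on how the pools were labeled. The brighter of its probes (A_51_P138044, transcript NM_019739, chromosome 3) read 279457 ± 27946 in the FOXO1-Tg pool and 4540 ± 454 in the wild-type pool (± scanner error, 1 spot). The pools differed 56.3-fold, or 5.81 on the log2 scale (scanner error 0.20). Among 34122 probes detected on both arrays, 4 had a higher ratio. The label of the FOXO1-Tg pool was therefore borne out by this probe.
The raw signal behind it, before background subtraction, was 253659 in the FOXO1-Tg pool and 4225 in the wild-type pool, over local backgrounds of 29 in the FOXO1-Tg pool and 31 in the wild-type pool. The spots printed within 2 rows and 2 columns of it did not share its ratio. Of these 22 spots, 16 were detected on both arrays, and their log2 ratios ran from -0.63 to 1.72 with a median of -0.14.

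The second Foxo1 probe (A_52_P453884, same transcript) did not differ between the pools beyond its error. It read 3188 ± 319 in the FOXO1-Tg pool and 2853 ± 285 in the wild-type pool, which is 1.02-fold and a log2 ratio of 0.031 (scanner error 0.20). The difference lay within the scanner error, and 65.3% of the probes detected on both arrays had a lower ratio. Raw signals of 3204 in the FOXO1-Tg pool and 2836 in the wild-type pool stood over local backgrounds of 30 in the FOXO1-Tg pool and 32 in the wild-type pool, so the spot was neither saturated nor near background. The spots around it had a median log2 ratio of -0.13.
The gap between the Foxo1 probes was 5.78 on the log2 scale (scanner error of the gap 0.29). It was the widest among 4050 genes with several detected probes, of which the next had 4.52, the median was 0.17, and the 95th percentile was 0.86. A gap over 1 occurred in 148 of these genes. The parts of the transcript that either probe reads were not analysed here, and the cause of the gap was not tested.

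**Figure D2:**
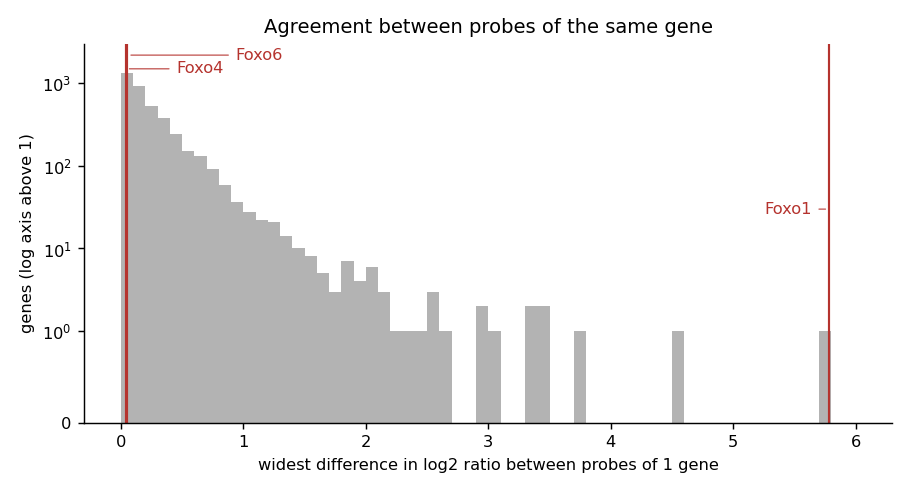
Number of genes (vertical axis, logarithmic above 1) by the widest difference in log2 ratio between detected probes of the same gene (horizontal axis), over 4050 genes. Red lines mark the FOXO genes, with Foxo1 at 5.78 beyond all other genes and Foxo4 (0.039) and Foxo6 (0.051) at the narrow end.

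The sequence around the start site of the endogenous Foxo1 gene is shown because Foxo1 is the member with the widest ratio. RefSeq promoters (GRCm38.p6) were matched for 2 of the 4 FOXO genes, Foxo1 and Foxo3. For Foxo1, the stretch from 250 bases before to 50 bases after the start site lies at chr3:52268087-52268386 on the forward strand, and capitals mark the transcribed bases:
Foxo1: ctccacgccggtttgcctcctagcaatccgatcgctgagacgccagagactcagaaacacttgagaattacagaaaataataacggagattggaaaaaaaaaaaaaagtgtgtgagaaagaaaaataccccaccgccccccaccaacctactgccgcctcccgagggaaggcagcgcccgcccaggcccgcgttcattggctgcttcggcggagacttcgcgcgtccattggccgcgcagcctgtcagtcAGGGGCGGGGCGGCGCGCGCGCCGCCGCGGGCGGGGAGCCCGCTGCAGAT
It is rich in G and C (61.3%, against 75% for the Foxo3 promoter and a median of 52.7% over 32851 mouse promoters). The motifs searched on both strands were those through which FOXO1 is known to bind DNA, TTGTTTAC and TTATTTAC (the DAF-16 binding element) and TTGTTTTG and TTATTTTG (the insulin response element). Copies that end in TTG can overlap the start of a following one. Any of the 4 was found in 6.28% of all promoters of this length, each alone in 1.23%, 1.12%, 2.51%, and 1.66%, and in neither of the Foxo1 and Foxo3 windows, which says only that these letters are not in these windows.

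Foxo6, a member best known from brain whose protein shuttles less between nucleus and cytoplasm than the others, was lower in the FOXO1-Tg pool on both of its probes. The brighter probe (A_52_P589568, transcript NM_194060, chromosome 4) read 1158 ± 116 in the FOXO1-Tg pool and 4892 ± 489 in the wild-type pool. Its log2 ratio was -2.21 (scanner error 0.20), or 0.216-fold, and 109 of the 34122 probes detected on both arrays had a lower ratio. The difference was 10.8 times its scanner error.
The second Foxo6 probe (A_55_P2092226) was dim, at 24.4 ± 4.05 in the FOXO1-Tg pool and 107 ± 11.4 in the wild-type pool. It gave 0.209-fold, a log2 ratio of -2.26 (scanner error 0.29), which was 7.92 times its error. The ratios of the Foxo6 probes differed by 0.051 (scanner error of the gap 0.35), and 18.9% of genes with several probes had a smaller gap.
The size of the second ratio rests on the background subtraction. Its raw signal was 67.0 in the FOXO1-Tg pool and 157 in the wild-type pool, over local backgrounds of 30 in the FOXO1-Tg pool and 34 in the wild-type pool. With no subtraction the log2 ratio was -1.34, and with the normexp background correction it was -1.05, still lower by more than 2-fold, while the brighter probe stayed between -2.21 and -2.08 under all 12 alternatives. The spots around the brighter probe had a median log2 ratio of 0.098 (-2.16 to 4.75, 10 spots) and those around the dim probe had -0.35 (-0.90 to 0.45, 13 spots).

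Foxo4, an X-linked member whose protein is regulated by AKT like FOXO1, was slightly lower on both probes without passing 2-fold. The first probe (A_55_P2150901, transcript NM_018789, chromosome X) read 231 ± 23.4 in the FOXO1-Tg pool and 273 ± 27.6 in the wild-type pool, which is 0.775-fold and a log2 ratio of -0.37 (scanner error 0.21). The second (A_55_P2113026) had 229 ± 23.1 in the FOXO1-Tg pool and 263 ± 26.6 in the wild-type pool, which is 0.796-fold and a log2 ratio of -0.33 (scanner error 0.21). These ratios were 1.78 and 1.6 times their scanner errors, with a gap of 0.039 between the probes, and 23.8% and 27.2% of all probes detected on both arrays lay lower. Differences of this size were therefore common on these arrays, whose probes had a median log2 ratio of -0.11.

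Foxo3, which with FOXO1 is the member most studied in muscle atrophy, was read by 1 probe whose signal was near the detection limit. Low Foxo3 RNA and a weak probe cannot be told apart here. Its probe (A_55_P2150896, transcript NM_019740, chromosome 10) read 26.7 ± 4.70 in the FOXO1-Tg pool and 21.2 ± 5.26 in the wild-type pool, and only in the FOXO1-Tg pool was it well above background. The log2 ratio as measured was 0.20 (scanner error 0.44), which is 0.454 times its error. It was 0.0013 with the normexp background correction, and with no background subtraction the sign changed, to -0.04. With quantile normalization it was 0.53 and with loess 0.58, both above the scanner error of 0.44. The ratio thus depended on the processing, and whether Foxo3 differed could not be settled at this signal. In RNA of whole muscle, fewer cells of a type and less RNA per cell cannot be told apart, which holds for each gene given here.

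**Figure D3:**
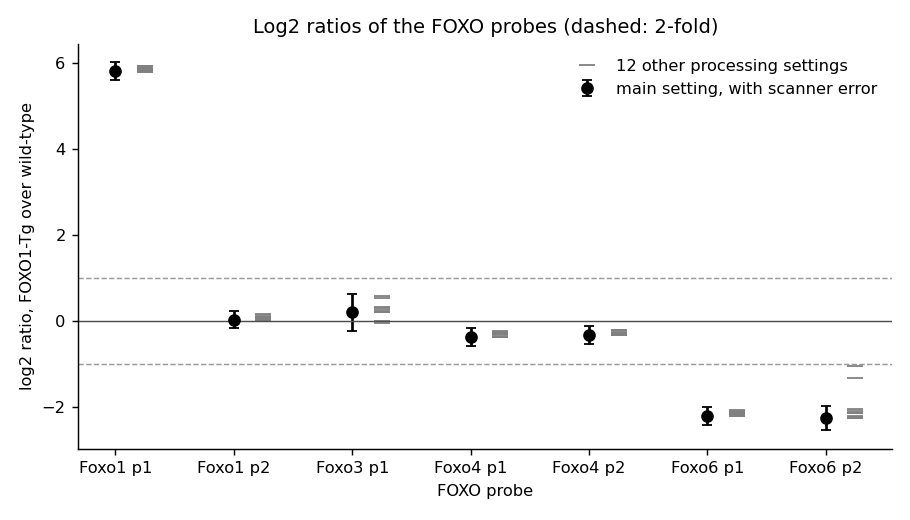
Log2 ratio of each FOXO probe (FOXO1-Tg over wild-type) with its scanner error as bars, and gray ticks for the ratio under 12 other processing settings. The horizontal dashed lines mark 2-fold, and only the first Foxo1 probe (5.81) and the Foxo6 probes (-2.21 and -2.26) lie beyond them.

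**Figure D4:**
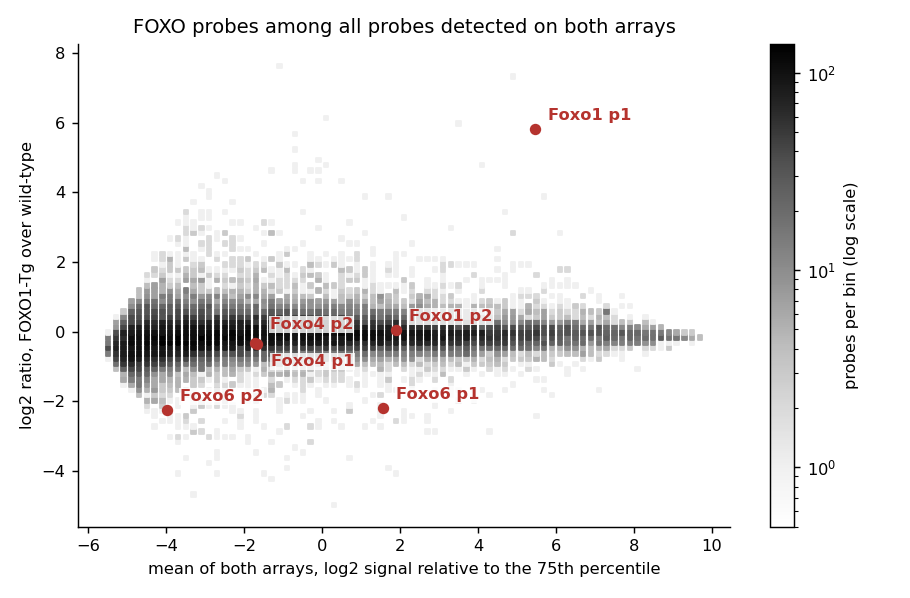
Log2 ratio (vertical axis) against the mean log2 signal of both arrays relative to the 75th percentile (horizontal axis) for all 34122 probes detected on both arrays, with darker bins holding more probes, and the 6 FOXO probes among them in red. The first Foxo1 probe lies outside the cloud of probes of like signal. The brighter Foxo6 probe lies in its sparse lower tail, where a few other probes of like signal are as low or lower. The Foxo4 probes and the second Foxo1 probe lie inside the cloud.

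Genes that neighbor the FOXO genes were compared to see whether a ratio was shared along the chromosome. Of the 3 nearest named genes on either side of each member, 20 of 24 were detected, and 5 of the 20 passed 2-fold. Over all 16660 genes detected on at least 1 array, 4.2% were more than 2-fold higher and 3.86% were more than 2-fold lower. The 5 detected neighbors of Foxo6 all had a ratio below 0, from -0.94 to -0.09, and none passed 2-fold. Among them, the dim genes Guca2b (-0.94) and Edn2 (-0.55) were detected in the wild-type pool only and are given as bounds. The detected neighbors of Foxo1 all had a ratio above 0, from 0.35 to 1.73, and 2 of the 5 passed 2-fold. These were Mgst2, a microsomal glutathione S-transferase (829 in the FOXO1-Tg pool and 228 in the wild-type pool, log2 ratio 1.73), and 5031434O11Rik (1355 in the FOXO1-Tg pool and 579 in the wild-type pool, 1.1). Neighbors of Foxo3 ran from -0.33 to 1.35, with Armc2 past 2-fold at 1.35 (532 in the FOXO1-Tg pool and 191 in the wild-type pool). Neighbors of Foxo4 ran from -1.23 to 1.26, with both ends, Tex11 and the amino acid transporter gene Slc7a3, detected in 1 pool only and given as bounds.

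Most enzymes that act on FOXO proteins stayed within 2-fold, as did most genes detected on these arrays. Of 25 kinases that phosphorylate FOXO proteins, 24 were detected, of which 1 was over 2-fold higher and 0 were over 2-fold lower. The median log2 ratio was 0.04. Over all genes the shares were 4.2% higher and 3.86% lower. The insulin-responsive kinase gene Akt2 had 57105 in the FOXO1-Tg pool and 49153 in the wild-type pool (0.09), and Akt1 and Sgk1, given for their role after their values were seen, had 0.24 and 0.09. Ikbkb and Eif2ak3 both had 0.39, and the lowest were the stress kinase genes Mapk14 at -0.49, Mapk9 at -0.34, and Stk4 at -0.31.
None of the 7 genes of 14-3-3 proteins passed 2-fold (median 0.08). They ran from Sfn at -0.36, Ywhag at -0.19, and Ywhae at -0.12 to Ywhaz at 0.24, Ywhab at 0.26, and Ywhaq at 0.64. With no scaling of the arrays Ywhae stood at 0.0053. None of 21 genes of enzymes that add or remove acetyl, methyl, ubiquitin, or O-GlcNAc groups on FOXO proteins passed 2-fold either (median -0.13). At the shares over all genes, 4.2% higher and 3.86% lower, lists this short would hold few such genes. The lowest were the deacetylase genes Sirt3 at -0.52, Hdac5 at -0.41, and Hdac4 at -0.41, and the highest were the methyltransferase genes Setd7 at 0.56 and Prmt6 at 0.26 and the acetyltransferase gene Kat2b at 0.23.

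Genes of insulin, IGF-1, and PI3K signaling upstream of FOXO also stayed within 2-fold. A list of this length would hold few genes past 2-fold, given shares of 4.2% higher and 3.86% lower across detected genes. Of 21 genes, all were detected, 15 had a ratio below 0, and the median was -0.27. Igf1r, the receptor of IGF-1, read 2206 in the FOXO1-Tg pool and 1241 in the wild-type pool, the highest log2 ratio of the list at 0.70. Trib3, which encodes an AKT inhibitor, had 0.43 and the insulin receptor substrate gene Irs1 had 0.25. Rictor, a subunit of the mTOR complex that phosphorylates AKT, had 855 in the FOXO1-Tg pool and 1267 in the wild-type pool (-0.70), followed by the AKT phosphatase gene Phlpp1 at -0.62 and the PI3K catalytic subunit gene Pik3cb at -0.57.

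Cofactors and partners of FOXO proteins moved in both directions. Of 23 genes, 22 were detected, 3 were more than 2-fold higher, and 2 were more than 2-fold lower (median -0.29). These are 13.6% and 9.09% of the detected genes of the list, beside 4.2% and 3.86% over all genes. The higher genes were Cebpa (1261 in the FOXO1-Tg pool and 411 in the wild-type pool, log2 ratio 1.49), Runx1 (279 in the FOXO1-Tg pool and 112 in the wild-type pool, 1.18), and Pparg (3036 in the FOXO1-Tg pool and 1364 in the wild-type pool, 1.03). Cebpa and Pparg encode transcription factors of adipocyte differentiation, and Runx1 a factor known to increase in denervated muscle. Without background subtraction Runx1 had 0.81 and with normexp 0.74, both within 2-fold.
The lower genes were Ppargc1b, which encodes the coactivator PGC-1β, and Myod1, which encodes the myogenic factor MyoD. Ppargc1b read 378 in the FOXO1-Tg pool and 791 in the wild-type pool (-1.20), and Myod1 had 1008 in the FOXO1-Tg pool and 2023 in the wild-type pool (-1.13). Fhl2, a LIM-domain cofactor gene, came next at -0.92.

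Genes known from other studies as FOXO targets included 10 members past 2-fold, all of them higher. Of 52 listed genes, 50 were detected, so the higher ones made up 20.0%, beside 4.2% over all genes, and 0 were lower by that much. The median was 0.23, and 20 of the 50 had a ratio below 0. The list was assembled with earlier results of these arrays known, and some of its genes were read from these same arrays by the study, so its count is not independent evidence of its direction.
Depp1, an autophagy-related FOXO target gene, read 80063 in the FOXO1-Tg pool and 2615 in the wild-type pool, a log2 ratio of 4.81. Gadd45a, which encodes a stress-induced protein of growth arrest, had 22144 in the FOXO1-Tg pool and 2673 in the wild-type pool (2.92). Pck1, a gene of gluconeogenesis, had 4479 in the FOXO1-Tg pool and 922 in the wild-type pool (2.15). Ctsl, which encodes the lysosomal protease cathepsin L, had 100382 in the FOXO1-Tg pool and 35059 in the wild-type pool (1.39). Each of these genes was read by 1 detected probe.
The other 6, named after their values were seen, were Cited2 at 1.64, Angptl4 at 1.52, Btg1 at 1.40, Ddit4 at 1.32, the autophagy gene Gabarapl1 at 1.15, and Sesn1 at 1.14. Ubiquitin ligase genes of atrophy, singled out likewise, stayed within 2-fold, with Trim63 (MuRF1) at 136428 in the FOXO1-Tg pool and 95260 in the wild-type pool (0.39) and Fbxo32 (atrogin-1) at 27106 in the FOXO1-Tg pool and 20282 in the wild-type pool (0.29). The lowest were Rictor at -0.70, the dim gene Mxi1 at -0.44 (21.9 in the FOXO1-Tg pool and 27.3 in the wild-type pool), and the mitochondrial peroxiredoxin gene Prdx3 at -0.36.

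FOXO motifs were looked for in the promoters of these targets, and windows that hold one are shown for 2 genes past 2-fold and 2 genes within it, with the motif in capitals (RefSeq, GRCm38.p6). The Depp1 window lies at chr6:116650592-116650631 with the motif 76 bases before the start site, the Btg1 window at chr10:96616780-96616819 (205 bases before), and the Trim63 window at chr4:134314909-134314948 (195 bases before), all on the forward strand. The Irs2 window lies at chr8:11008944-11008983 on the reverse strand (38 bases before). Irs2, an insulin receptor substrate gene, had a log2 ratio of -0.23.
Depp1: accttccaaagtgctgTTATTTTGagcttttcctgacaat
Btg1: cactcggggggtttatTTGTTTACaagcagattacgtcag
Trim63: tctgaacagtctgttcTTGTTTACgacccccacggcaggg
Irs2: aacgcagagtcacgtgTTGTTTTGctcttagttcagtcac
Of 43 target genes with a promoter entry, 10 (23.3%) held at least 1 motif, against 1932 of 27025 genes (7.15%). Among targets more than 2-fold higher the count was 2 of 9 (Depp1 and Btg1), and among targets within 2-fold it was 7 of 33, so the share was 22.2% in the higher targets and 21.2% in the others. Trim63 and Btg1 carry the same 8 letters and differed in ratio (0.39 and 1.40). A match is a description of letters in a window and not of binding.

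Other forkhead genes were mostly dim and within 2-fold. Of 40 genes, 30 were detected, 24 of them on both arrays. The median log2 ratio was -0.12 (0.0053 with no scaling and 0.0093 with loess), 1 gene was more than 2-fold higher (3.33%, beside 4.2% over all genes), and 4 were more than 2-fold lower (13.3%, beside 3.86%). Foxp2 read 116 in the FOXO1-Tg pool and 51.4 in the wild-type pool, a log2 ratio of 1.04, which was 0.62 without background subtraction. The 4 lower genes, Foxb2, Foxe3, Foxn4, and Foxe1, were well above background in the wild-type pool only, with wild-type signals of 29.6 to 86.8, and their bounds ran from -2.70 to -1.15. Of these, only Foxb2 was more than 2-fold lower without background subtraction, at -1.70. After Foxp2, the highest were Foxf2 at 0.72 and Foxq1 at 0.70, both well above background in the FOXO1-Tg pool only. The brighter forkhead genes were named after their values were seen. Foxl2 had -0.05 (down to -0.52 over its 2 probes), Foxj3 -0.31, Foxn3 -0.49, and Foxk2 -0.33. Foxp1 had 0.68 (down to -0.23 over its 3 probes), Foxp4 0.03 (up to 0.46 over its 3 probes), and Foxk1 0.61.

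**Figure D5:**
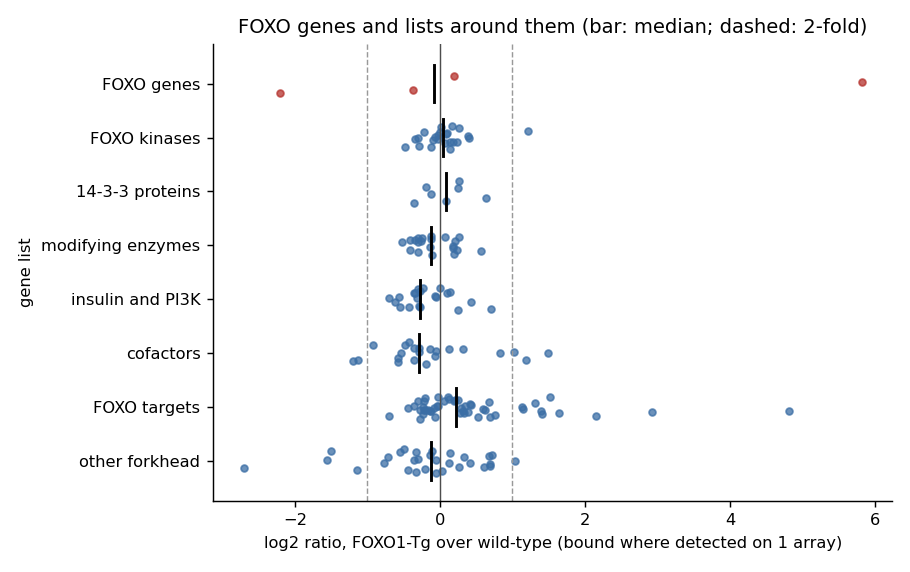
Log2 ratio (FOXO1-Tg over wild-type, bounds for genes detected on 1 array) of the FOXO genes and of the detected genes of each list, 1 point per gene, with the median as a black bar and 2-fold as dashed lines. Points beyond 2-fold to the right are most numerous among FOXO targets, the longest list (10 of 50, or 20.0%, beside 4.2% over all genes). That list was assembled with earlier results of these arrays known. The Foxo1 point (5.81) is the brighter probe of the gene and lies beyond every other gene drawn. The second Foxo1 probe had 0.031 and is not drawn.

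Some markers of cells other than muscle fibers differed between the pools as well, and adipocytes are known to express Cebpa, Pparg, Angptl4, and Pck1. Over all genes detected on at least 1 array, 4.2% were more than 2-fold higher and 3.86% were more than 2-fold lower. At these shares a list of 8 markers would hold few genes past 2-fold, so a count of 1 or 0 is near the share over all genes. Of 8 adipocyte markers, all were detected and 7 were more than 2-fold higher (median 1.89, from Fabp4 at 0.98 and Cfd at 1.73 to Retn at 1.93 and Cidea at 2.88), with summed signals relative to the 75th percentile of 363 in the FOXO1-Tg pool and 134 in the wild-type pool. Of 8 keratinocyte markers, 5 were more than 2-fold higher (median 1.25, from Sfn at -0.36 to Lor at 4.94), with summed signals of 8.88 in the FOXO1-Tg pool and 1.90 in the wild-type pool. Lor was the brightest of them in the FOXO1-Tg pool (4456, against 132 in the wild-type pool). Krt1, Krt15, and Dsg1a were detected in the FOXO1-Tg pool only and are given as bounds. Under other processing settings Krt14 fell to 0.63 and Krt1 to 0.35, both within 2-fold. Of 8 Schwann cell markers, 4 were more than 2-fold higher (median 0.74, Ngfr at 3.02), with sums of 110 in the FOXO1-Tg pool and 87.6 in the wild-type pool. Fibroblast markers had 1 of 8 past 2-fold (Fbln1 at 1.08, median 0.57, sums of 524 in the FOXO1-Tg pool and 406 in the wild-type pool). Fbln1 had 0.88 on its other probe and fell to 0.92 under other processing settings, both within 2-fold. None of the 8 macrophage (median 0.32) or 8 endothelial markers (median -0.20) passed 2-fold, and every marker of these lists was detected in at least 1 pool. The part of these cells in the ratios of Foxo6, the cofactors, and the targets was not tested.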

How the data were processed

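Per the labels and the study's methods, RNA from 5 FOXO1-Tg and 6 wild-type mice was pooled by genotype, labeled with cyanine 3, and hybridized to 1 array per pool. The authors deposited intensity values, the processed signals of Agilent Feature Extraction (11.0.1.1 by the file headers, 9.5 by the submitters' processing notes), background-subtracted and not scaled between arrays. Signals in the value table are identical (largest difference 0 over 62976 spots, medians 49.998 for FOXO1-Tg and 50.3 for wild-type).

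Here, log2 signals of 59305 non-control spots per array were set relative to the array's 75th percentile. Outlier spots (237) were left out and spots of a probe averaged, which left 55670 probes. Detection of a probe required that 50% or more of its spots exceed background clearly, by the scanner software's own call, which held for 34122 probes on both arrays, 2013 in FOXO1-Tg only, and 1875 in wild-type only. For a probe detected on 1 array, the fold is a bound against the other array's dimmest detected signal (14.6 for FOXO1-Tg, 17.5 for wild-type) or the probe's own signal there, if higher. The median signal over local background was 3.24 in FOXO1-Tg and 3.21 in wild-type. The median scanner error of a log2 ratio was 0.20, and the SD over spots was 0.053 at the median of 293 probes with 8 or more spots.

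Probes were named through unversioned transcripts in a RefSeq table of GRCm38.p6 (28329 probes), from which gene order and chromosome were taken. The detected probe of highest mean signal stood for its gene. Each FOXO probe was named, together with the 3 highest and 3 lowest detected genes of each list (2 and 2 for cell type markers), all genes past 2-fold where 5 or fewer passed in a direction, all neighbors past 2-fold, and Ctsl and Ppargc1b. Some marker genes under this rule are left out of the text. The values of 1 listed gene past 2-fold are not reported here. Members, lists, and alternatives were chosen with earlier results of these data known. With 1 array per pool, called means past 2-fold, and no gene was named for a pattern like that of a FOXO gene. The procedure was tested on simulated arrays. Alternatives covered scaling, background correction (normexp with an offset of 50 on median signals), filters, probe summaries, and thresholds of 1.5-fold and 3-fold. Protein sequences and probe positions were not analysed here. Python 3.11.15 with numpy 2.4.6, pandas 2.3.3, statsmodels 0.14.6, and matplotlib 3.10.9, and R 4.3.3 with limma 3.58.1 were used.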

Additional observations from a re-analysis of the deposited data

How the results depend on the processing

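No paired analysis was possible because FOXO1-Tg and wild-type RNA were hybridized as 1 pool each, which also leaves no sample to omit. Of 84 values of the FOXO probes under 12 alternatives, 82 stayed within the scanner error. Part of this count was fixed in advance, because some alternatives could not change these probes. The deposited signals are identical, and keeping outlier spots or taking the median over spots does not act on probes of 1 spot. Their signals also all lay above the floor set on dim signals. The brighter Foxo1 probe ran from 5.79 to 5.94, the second from 0.031 to 0.16, the Foxo4 probes from -0.37 to -0.20, and Foxo3 from -0.04 to 0.58. The values that moved were those of the dim Foxo6 probe, at -1.05 with normexp and -1.34 with no background subtraction. The difference between the Foxo6 probes then stood at -1.07 and -0.81, against 0.051, and it was below 0 in 4 alternatives.

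Counts of all features past 2-fold depended more on the settings. Genes more than 2-fold higher and lower numbered 383 and 238 with normexp, 412 and 291 with no background subtraction, 1529 and 1804 past 1.5-fold, and 299 and 231 past 3-fold. Lower genes numbered 403 with loess, 397 when detected on both arrays, and 1737 with no filter. Probes higher and lower numbered 603 and 467 with normexp, 662 and 602 with no background subtraction, 2202 and 6061 with no filter, 2990 and 5609 past 1.5-fold, and 548 and 554 past 3-fold. Lower probes numbered 1115 with quantile normalization, 955 with loess, and 1009 when detected on both arrays. Higher genes made up 52.1% of genes past 2-fold and 53.7% to 70.0% under 6 other scalings, of which no scaling shifted the median of all genes the most, by 0.13. The cause of these changes was not tested.

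Of 710 values for lists and other named genes under 17 alternatives, 678 counted as unmoved and 32 moved. Unmoved meant a shift below the scanner error for a gene, below a fixed limit for a list median, or within 1.5 times for a count. Part of the 678 was fixed in advance. The deposited signals are identical, and the thresholds of 1.5-fold and 3-fold could change counts but not ratios or medians. Dim genes have limited precision: with normexp, Foxe1 stood at -0.32, Foxe3 at -0.46, and Foxp2 at 0.53. Probe positions were not used, so probes within 50 kb of a FOXO probe were not run.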
